A study of Mus musculus with 8 samples.

Results

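The endoplasmic reticulum (ER) folds secreted and membrane proteins with the help of chaperones, and the unfolded protein response raises the supply of these chaperones when folding falls behind. This report covers 10 of its genes in mouse embryonic stem cells, taken by gene symbol from the footprint tables: Hspa5, Hsp90b1, Calr, Pdia4, Dnajb9, Sdf2l1, Ern1, Xbp1, Herpud1 and Edem1. All 10 were found among the 23845 symbols of each table, and all 10 passed the filter on low counts. The cells were pluripotent stem cells (mESC) at passages 5 to 10, either wild-type (WT) or lacking METTL5 (METTL5 KO), the enzyme that places N6-methyladenosine on 18S ribosomal RNA. Ribosome footprints (Ribo-seq) and total RNA (RNA-seq) were each sequenced from 2 WT and 2 KO libraries. The sources used here do not give the parental line, how the knockout was made or how many KO clones there were. Whether the 2 libraries of a genotype came from separate cultures is not given either, and p-values then reflect only variation among libraries, which may be technical.

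In the textbook account, HSPA5 (BiP) is the central ER chaperone, and it also holds the stress sensors silent while it is free. The sensor IRE1, encoded by Ern1, cuts a short intron out of Xbp1 mRNA, and the protein read from the joined mRNA switches on chaperone and degradation genes. ER-associated degradation then removes proteins that cannot be folded. The series set KO against WT to see what loss of METTL5 does to mRNAs and their translation, and the comparison here asks whether footprints on these ER genes differed.

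Promoters of chaperone genes are known for the ER stress response element, bound by ATF6 and XBP1 together with NF-Y. It was searched on both strands as CCAAT, 9 bases of any kind and CCACG, along with its second form, ATTGG, 1 base and CCACG, and with the core TGACGTGG of the UPR element. The windows, from RefSeq on GRCm38.p6, hold 300 bases, 250 before the start site and 50 after it. The element was present in 3 of the 10 genes (Hspa5, Hsp90b1 and Calr), against 0.119% of all 32851 promoter windows. Of the other ER genes of the wider set below, 80 had a window, and 6 of them held it. Since the element is known from chaperone promoters, matches there were foreseeable, and the shares are a description with no test. The second form was found in Herpud1 alone of the 10 and in 1 of the 80, against 0.0365% of windows. The UPR element core was in none of the 10 and in 4 of the 80, against 0.676%. No match in a window says only that these letters are not there. The 4 windows of the 10 genes with a match are shown 5′ to 3′ on the strand of the gene. The place of each match can thus be read. Capitals mark the matches.

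Hspa5 (chr2:34771840-34772139, plus strand): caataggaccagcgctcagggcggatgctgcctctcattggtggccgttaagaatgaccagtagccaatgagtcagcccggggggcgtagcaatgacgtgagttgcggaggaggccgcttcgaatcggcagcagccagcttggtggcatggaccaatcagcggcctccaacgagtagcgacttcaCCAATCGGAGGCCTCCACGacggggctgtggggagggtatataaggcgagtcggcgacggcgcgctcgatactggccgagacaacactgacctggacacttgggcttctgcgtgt

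Hsp90b1 (chr10:86705395-86705694, minus strand): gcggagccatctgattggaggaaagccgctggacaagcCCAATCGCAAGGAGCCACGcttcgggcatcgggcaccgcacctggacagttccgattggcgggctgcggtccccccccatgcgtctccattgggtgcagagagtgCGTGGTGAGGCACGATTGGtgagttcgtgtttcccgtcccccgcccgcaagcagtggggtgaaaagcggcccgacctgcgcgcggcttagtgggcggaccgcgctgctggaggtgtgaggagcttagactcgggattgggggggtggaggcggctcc

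Calr (chr8:84846882-84847181, minus strand): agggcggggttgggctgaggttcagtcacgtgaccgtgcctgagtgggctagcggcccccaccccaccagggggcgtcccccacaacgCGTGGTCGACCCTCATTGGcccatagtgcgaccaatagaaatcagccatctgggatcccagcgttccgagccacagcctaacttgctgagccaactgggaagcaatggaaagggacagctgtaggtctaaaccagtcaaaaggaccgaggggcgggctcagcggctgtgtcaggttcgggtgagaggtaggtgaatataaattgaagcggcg

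Herpud1 (chr8:94386179-94386478, plus strand): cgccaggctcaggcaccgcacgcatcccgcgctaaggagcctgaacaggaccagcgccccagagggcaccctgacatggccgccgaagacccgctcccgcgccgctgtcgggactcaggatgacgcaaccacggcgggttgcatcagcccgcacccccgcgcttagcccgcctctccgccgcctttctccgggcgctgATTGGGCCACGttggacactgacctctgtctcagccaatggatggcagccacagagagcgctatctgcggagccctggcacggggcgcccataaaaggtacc

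Counted back from the start site, the match in Hspa5 lay at -65 to -47. Hsp90b1 held a pair of matches, at -212 to -194 and, on the opposite strand, at -107 to -89. The match in Calr was on the opposite strand at -162 to -144, and the second form in Herpud1 lay at -52 to -42. The footprint values below are given for these 4 genes beside those of the other 6.

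No ER gene of the 10 passed the test between KO and WT footprints in the fit on genotype alone. The chaperones Hspa5 and Hsp90b1 stood slightly higher in both KO libraries, the transcription factor gene Xbp1, the sensor gene Ern1 and the isomerase gene Pdia4 slightly lower, and the other 5 overlapped between the genotypes. Log2 fold changes ran from -0.42 (Xbp1) to 0.19 (Hsp90b1), with a median of -0.03, against 0.01 over all 12315 genes tested. By the edgeR quasi-likelihood test, 0 of 10 were called at an adjusted p below 0.05, where 2.44% of all genes were. At an unadjusted p below 0.05 the count was also 0 of 10, against 19.4% of all genes, and 0 were called by DESeq2 or by limma-voom. KO libraries lay above both WT libraries for 2 of the 10 (24.3% of all genes did) and below both for 3 (25.5%). The WT and KO footprint libraries of the same replicate number carry the same tag in their deposited names, and what it marks is not stated. With the replicate number as a term in the edgeR fit (replicate block), 1 of the 10 was called, Xbp1, against 24.0% of all genes.

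Footprint depth was 8401463 to 11487964 expected counts per library, with 0.590% to 0.668% of it on the 10 genes. Levels are in CPM, a gene's counts per 1000000 counts of its library. Whether KO libraries lie above or below WT is read on this scale. The gene Rn45s took 7.58% and 10.9% of counts in WT and 10.6% and 15.2% in KO. A larger share lowers the CPM of every other gene, so a narrow separation, such as that of Pdia4, may depend on it. With Rn45s left out of the edgeR fit, Pdia4 stood at -0.19 and 0 of the 10 were called. As a check of the labels, footprints on Mettl5 itself fell from 41.2 and 45.9 CPM in the WT libraries to 4.08 and 4.79 CPM in the KO libraries (edgeR log2 fold change of -3.27, with an adjusted p = 0.00131). Stem cell markers summed to 5748 and 7446 CPM in WT and 7325 and 7150 CPM in KO, and 0 of 10 passed the test. Of these, 8 were positive and 2 negative. Zfp42 was lower in both KO libraries, with 1084 and 1096 against 754 and 691 CPM (-0.58, edgeR adjusted p = 0.0904). Pou5f1 was higher in both (0.30, adjusted p = 0.360). Endoderm markers, which include genes of matrix-secreting cells, summed to 2079 and 2117 CPM in WT and 1228 and 1370 CPM in KO. All 13 tested were negative, and 12 lay below both WT libraries (25.5% of all genes did). Called lower were 4 of 13 (Cubn, Dab2, Col4a1 and Col4a2), against 76 of 12315 genes. The tested transcription factors Gata6 (-1.57, edgeR adjusted p = 0.0960), Sox17 (-1.60, 0.193), Sox7 (-1.32, 0.174) and Gata4 (-0.42, 0.580) did not pass. Afp and Ttr, at 0 to 0.238 CPM, were not tested. Fibroblast markers summed to 216 and 114 CPM in WT and 484 and 691 CPM in KO. Called higher were 3 of 12 tested (Col3a1, Col5a1 and Tagln), against 225 of 12315 genes. Positive were 9 of 12, and Lum, not tested, was at 0 in every library. Within the fibroblast list Pdgfra (-1.20, edgeR adjusted p = 0.0557) and Thy1 (-0.51, adjusted p = 0.219) were lower in both KO libraries and Col5a2 overlapped (-0.22). The part of these marker lists in the ER values was not tested. In footprints of bulk cultures, fewer cells of a type, less RNA per cell and fewer footprints per RNA cannot be told apart.

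**Figure D1:**
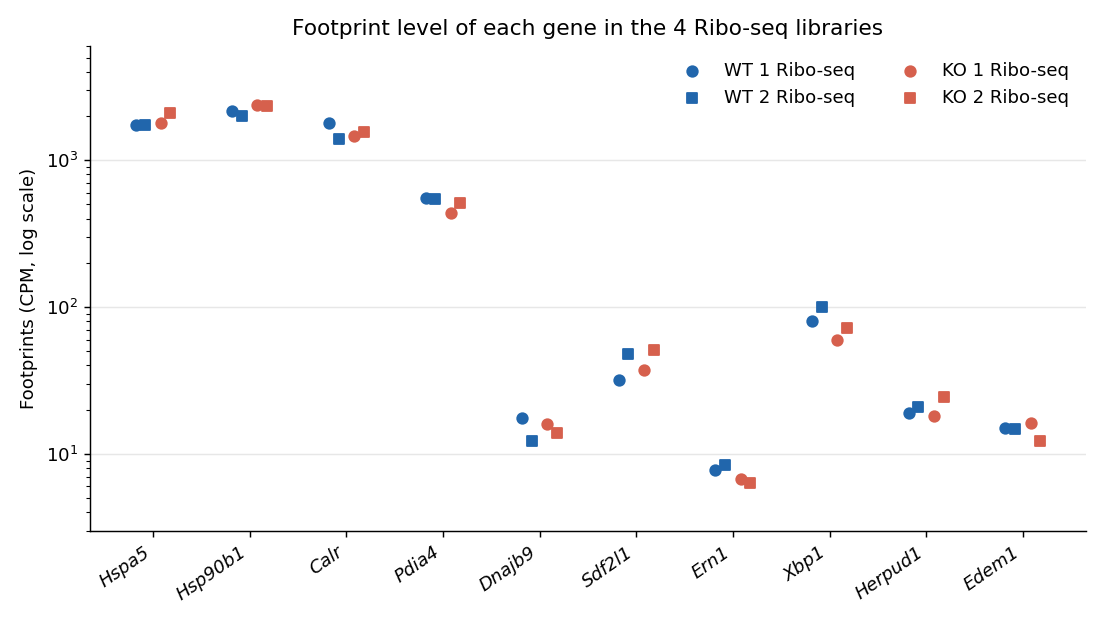
Footprint level in CPM (log axis) of each of the 10 genes, with WT libraries in blue, KO libraries in red, circles for replicate 1 and squares for replicate 2. The levels run from 6.35 CPM (Ern1 in KO) to 2362 CPM (Hsp90b1 in KO), and on so wide an axis differences between WT and KO look small. WT and KO do not overlap for Hspa5, Hsp90b1, Pdia4, Ern1 and Xbp1.

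Compared per length, on the deposited TPM scale, Hsp90b1, Calr, Hspa5 and Pdia4 stood above the other 6 genes in every library. Mean TPM over the 4 libraries was 1275 for Hsp90b1, 1268 for Calr and 1144 for Hspa5, all within the top of the tested genes (percentiles 98.7 to 98.8). Their ranges over libraries overlapped, though Hsp90b1 was above Hspa5 in each of the 4 libraries (1236 against 1068 and 1170 against 1102 TPM in WT, 1329 against 1087 and 1366 against 1318 TPM in KO). Pdia4 followed at 327 TPM, then Sdf2l1 at 61.0 and Xbp1 at 55.2, again with overlapping ranges. Herpud1 at 17.6 and Dnajb9 at 12.7 TPM were apart from each other and from their neighbours. Edem1 (3.93) and Ern1 (2.90) were lowest and overlapped, Ern1 at percentile 25.7 of the tested genes.

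Hspa5, the ER member of the HSP70 family, had 1732 and 1742 CPM in WT and 1787 and 2086 CPM in KO. Both KO libraries were above WT, but KO replicate 1 by less than the gap between the KO libraries. Its log2 fold change was 0.17 (SE 0.17, 95% interval -0.22 to 0.57, edgeR adjusted p = 0.641), and it was 0.01 without KO replicate 2. Hsp90b1, the ER member of the HSP90 family, had 2171 and 2008 CPM in WT and 2362 and 2346 CPM in KO. The KO values nearly coincided and lay above both WT values. The log2 fold change was 0.19 (SE 0.16, interval -0.18 to 0.55, edgeR adjusted p = 0.585). Exons of Hsp90b1 share 415 bases with 1810014B01Rik, a pseudogene on the opposite strand. On the same strand they share 84 bases with Gm15344 and 133 with the miRNA gene Gm25745. The sources used here do not give the strand setting of the counting.

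Calr encodes calreticulin, a calcium-binding chaperone that holds glycoproteins. It had 1782 and 1401 CPM in WT and 1459 and 1559 CPM in KO, both KO values falling between those of WT (log2 fold change -0.06, interval -0.48 to 0.35). Pdia4, the disulfide isomerase ERp72, had 554 and 543 CPM in WT and 436 and 509 CPM in KO. Both KO values were lower, and the gap between the KO libraries exceeded that between KO replicate 2 and WT (log2 fold change -0.20, interval -0.58 to 0.18, edgeR adjusted p = 0.570). The value was -0.05 without KO replicate 1 and -0.36 without KO replicate 2.

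Dnajb9 (ERdj4) and Sdf2l1 are cochaperones of HSPA5, known for steep induction under ER stress. Dnajb9 had 17.6 and 12.2 CPM in WT and 16.0 and 13.8 CPM in KO, so that the KO values lay inside the WT range (log2 fold change 0.003, interval -0.53 to 0.53). Sdf2l1 had 31.9 and 48.0 CPM in WT and 37.2 and 51.0 CPM in KO, and replicates differed more than genotypes (log2 fold change 0.17, interval -0.40 to 0.74). Without WT replicate 2 the Sdf2l1 value was 0.48, and without KO replicate 2 it was -0.13.

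Ern1, the sensor kinase and nuclease, was the least covered of the 10, with 63 to 81 counts per library. It had 7.74 and 8.33 CPM in WT and 6.76 and 6.35 CPM in KO, without overlap (log2 fold change -0.28, SE 0.24, interval -0.82 to 0.26, edgeR adjusted p = 0.571). Xbp1 had 80.2 and 99.3 CPM in WT and 60.0 and 72.3 CPM in KO, also without overlap, the highest KO value lying below the lowest WT value. Its log2 fold change of -0.42 (SE 0.19, interval -0.84 to 0.002) had the smallest p of the 10 (unadjusted p = 0.0507, edgeR adjusted p = 0.260). With the replicate block it was -0.42 with an adjusted p = 0.00279, which passes. The value ranged from -0.61 without KO replicate 2 to -0.25 without KO replicate 1. Ern1 and Xbp1 both lie on chromosome 11, where the median of all tested genes was -0.25.

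Herpud1, a scaffold of the ER degradation complex, had 18.9 and 21.0 CPM in WT and 18.2 and 24.4 CPM in KO, the WT values lying inside the KO range (log2 fold change 0.12, interval -0.38 to 0.62). Edem1, which marks misfolded glycoproteins for degradation, had 15 and 14.9 CPM in WT and 16.3 and 12.3 CPM in KO, again with WT inside KO (log2 fold change -0.06, interval -0.53 to 0.41). The intervals of all 10 genes, each taken alone, lay between a 0.558-fold level in KO (Xbp1) and a 1.67-fold level (Sdf2l1).

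Chromosome position moved with the fold changes. Footprints of chromosomes 6, 8 and 11 were lower in KO as a whole, with medians of -0.38, -0.22 and -0.25, and 6 of the 10 genes lie there. Those 6 had a median of -0.13, and 1 of them (Herpud1) was above 0. The other 4, on chromosomes 2, 10, 12 and 16, had a median of 0.17 and were all above 0. With chromosome medians removed, Pdia4 stood at 0.18, Edem1 at 0.32, Calr at 0.16, Herpud1 at 0.34, Ern1 at -0.03 and Xbp1 at -0.17. On that scale the median of the 10 was 0.12 in place of -0.03, and 0 of 10 were called. What lowers the footprints of these chromosomes was not tested.

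**Figure D2:**
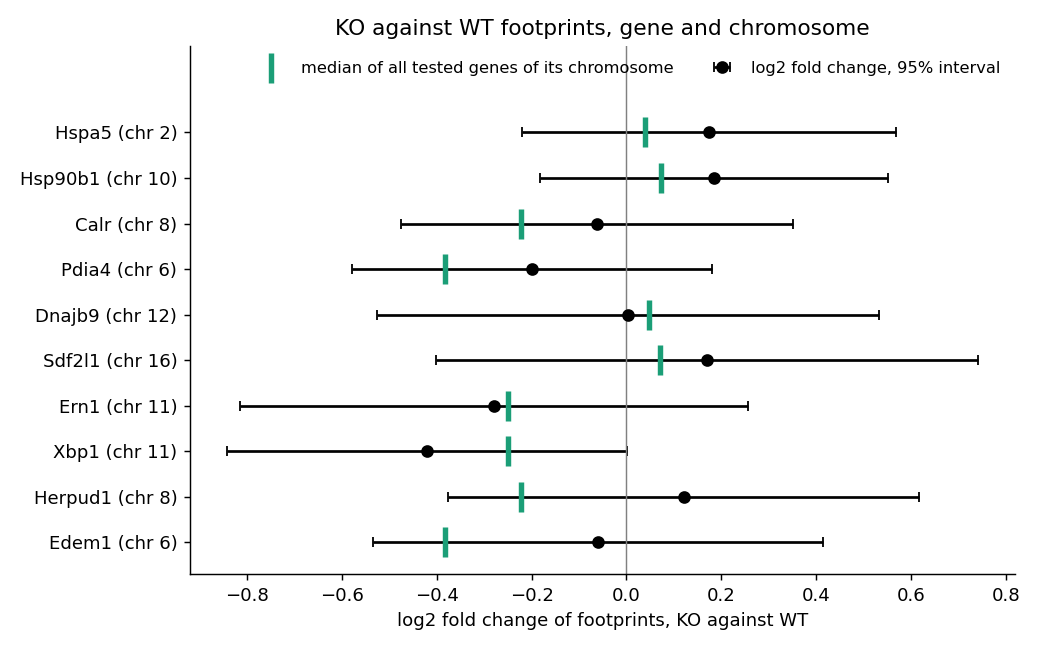
Log2 fold change of footprints in KO against WT (points) with 95% intervals from edgeR, and the median of all tested genes on the same chromosome (green bars). All 10 intervals include 0, and the bars of chromosomes 6, 8 and 11 lie left of 0.

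**Figure D3:**
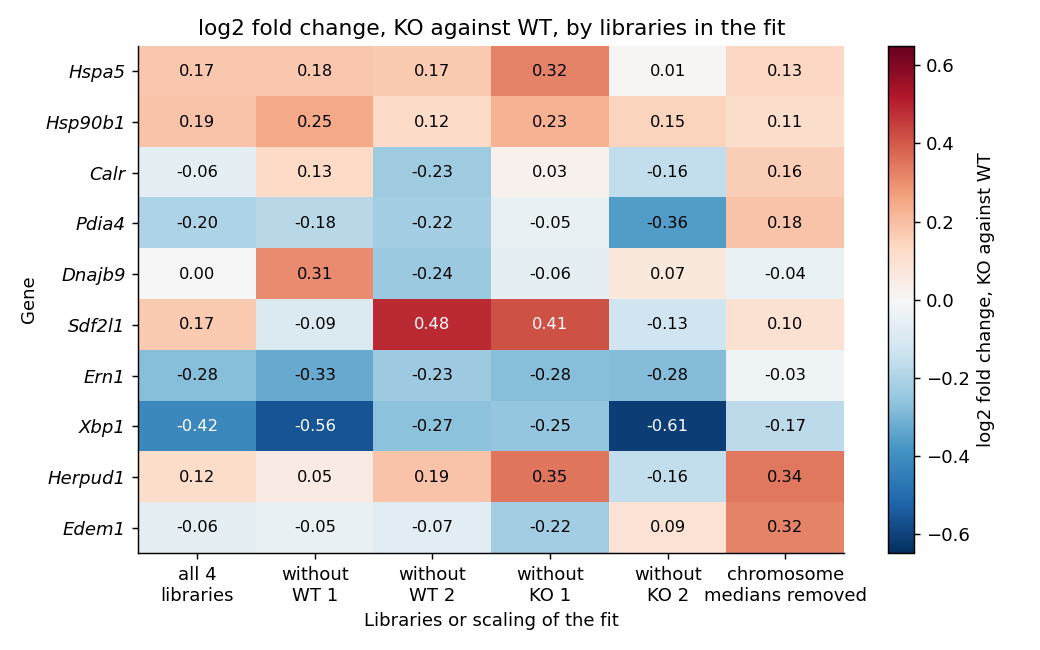
Log2 fold change of each gene (rows) with all 4 Ribo-seq libraries, without each library in turn, and with chromosome medians removed (columns). Xbp1 and Ern1 stay negative in every column, Hspa5 and Hsp90b1 stay positive, and the other 6 change sign at least once.

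A wider set of 111 ER genes in 6 lists by role was examined in the same fit. Of these, 110 passed the filter, and Ern2, the gut paralogue of Ern1, had no counts. By edgeR on genotype alone none was called in either direction (0 of 110, against 2.44% of all genes), and 0 were called by DESeq2 or limma-voom. With the replicate block 23 of 110 were called higher and 11 lower, against 12.7% and 11.3% of all genes. All 12 genes named below by their small p were among these 34, with block adjusted p from 6.49e-07 (Serpinh1) to 0.0190 (Txndc5), and the adjusted p-values below are those without the block. At an unadjusted p below 0.05 there were 12 higher and 8 lower of 110, against 19.4% of all genes in either direction. Positive fold changes were seen for 78 of 110, with a median of 0.15, where 6250 of 12315 genes were positive and the median was 0.01. KO libraries lay above both WT libraries for 44 of the 110 (24.3% of all genes) and below both for 15 (25.5%). On chromosomes 6, 8 and 11, 6 of 20 were positive, as were 545 of 2285 genes overall. Elsewhere 72 of 90 were positive, against 5705 of 10030.

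Among chaperones and cochaperones, 14 of 16 were positive (median 0.25; 0.11 without KO replicate 2). Serpinh1, the collagen chaperone HSP47, had 98.0 and 85.0 CPM in WT and 133 and 150 CPM in KO. Its log2 fold change of 0.64 (SE 0.16, edgeR adjusted p = 0.0821) did not pass the test. It passed with no filter on low counts (adjusted p = 0.0151) and without WT replicate 1 (0.75, adjusted p = 0.0283), where the lone WT library is assumed to vary like the KO pair. The 6 collagens of the fibroblast list, given after their values were seen, had log2 fold changes of 3.72 (Col3a1, adjusted p = 0.0272), 1.93 (Col5a1, 0.0110), 2.37 (Col1a1, 0.132), 2.14 (Col1a2, 0.144), 1.80 (Col6a1, 0.153) and -0.22 (Col5a2, 0.873). From the endoderm list, the collagens Col4a1 (-1.63, edgeR adjusted p = 0.0108) and Col4a2 (-1.28, 0.0256) were called lower. The part of all these collagens in the Serpinh1 value was not tested. Cnpy3, a cochaperone of the HSP90B1 protein, had 32.8 and 40.7 CPM in WT and 53.3 and 47.4 CPM in KO (0.47, adjusted p = 0.209). The lectin chaperone Canx, partner of calreticulin, had 1795 and 1753 CPM in WT and 1505 and 1791 CPM in KO (-0.09), and the HSPA5 cofactor Hyou1 540 and 498 against 482 and 541 CPM (-0.003). Both were picked after their values were seen.

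Disulfide isomerases and oxidases were positive in 13 of 16 (median 0.21; 0.07 without KO replicate 2). The membrane oxidoreductase gene Tmx1 had 29.2 and 25.1 CPM in WT and 40.5 and 41.3 CPM in KO, without overlap (0.60, SE 0.18, edgeR adjusted p = 0.126). Txndc5 had 96.3 and 81.8 against 105 and 118 CPM (0.34, adjusted p = 0.316). Glycosylation and lectin cycle genes were positive in 12 of 15 (median 0.23; 0.10 without KO replicate 2). Stt3b, a catalytic subunit of the oligosaccharyltransferase, had 73.4 and 61.2 CPM in WT and 99.6 and 92.5 CPM in KO (0.52, adjusted p = 0.128). Prkcsh, a subunit of the glucosidase that trims glycans, had 304 and 271 against 372 and 367 CPM (0.37, adjusted p = 0.227). In all 4 genes KO libraries were above both WT libraries.

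Sensors and signalling genes were positive in 12 of 16 (median 0.20; 0.12 without KO replicate 2 and 0.30 without WT replicate 2). Ddit3 (CHOP), a factor switched on late in ER stress, was low throughout, at 1.24 and 2.74 CPM in WT and 4.08 and 4.09 CPM in KO (1.08, SE 0.41, edgeR adjusted p = 0.195). Leaving out WT replicate 1 lowered it to 0.59, and leaving out WT replicate 2 raised it to 1.72. Creb3l1, an ER-anchored transcription factor of secretory cells, had 5.73 and 7.26 against 9.98 and 11.3 CPM (0.74, adjusted p = 0.155). The sensor genes Eif2ak3 (PERK), on chromosome 6, and Atf6, named after their values were seen, had log2 fold changes of -0.21 and 0.13 (adjusted p = 0.565 and 0.791).

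Degradation genes were split, with 15 of 24 positive (median 0.12; -0.002 without WT replicate 2 and 0.20 without WT replicate 1). Man1b1, the ER mannosidase, had 20.5 and 20.9 CPM in WT and 28.4 and 31.7 CPM in KO (0.55, edgeR adjusted p = 0.155). Vcp, the ATPase that pulls proteins out of the membrane, had 1042 and 1133 against 798 and 803 CPM (-0.43, adjusted p = 0.187). Translocation genes were also split, with 12 of 23 positive (median 0.02; -0.15 to 0.16 with 1 library left out, the lowest without KO replicate 2 and the highest without KO replicate 1). The signal recognition particle genes Srp72 and Srp68 were lower in both KO libraries, at 143 and 133 against 100 and 101 CPM (-0.44, adjusted p = 0.150) and at 191 and 171 against 142 and 122 CPM (-0.45, adjusted p = 0.153). Srp68 lies on chromosome 11 and stood at -0.20 with chromosome medians removed.

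**Figure D4:**
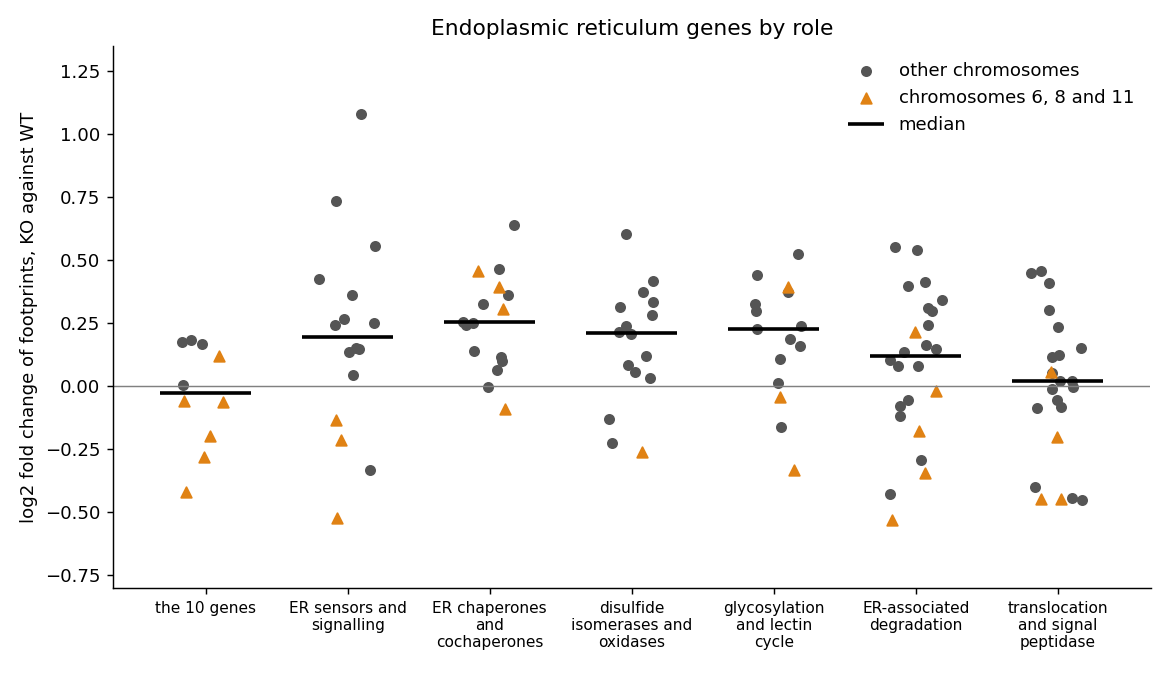
Log2 fold change of footprints in KO against WT for the 10 genes and the 6 lists of other ER genes, with triangles for genes on chromosomes 6, 8 and 11 and bars for list medians. Medians run from -0.03 (the 10 genes) to 0.25 (chaperones and cochaperones), and no gene shown was called by the fit on genotype alone.

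By distance of centred log2(CPM + 0.5) values over the 4 footprint libraries, the 5 genes nearest to Hspa5 among 9258 were Lrch1, Setd8, Gm13157, Rbbp6 and Uqcc1 (distances 0.03 to 0.05). Each was near level in the first 3 libraries and higher in KO replicate 2, such as Rbbp6 with 101, 103, 101 and 124 CPM. Hsp90b1 ranked 387th at a distance of 0.19. With 4 points this only describes the pattern.

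A pair of the genes, Xbp1 and Hspa5, have 2 RefSeq transcripts each in the tables. RSEM gives a gene's length as the mean of its transcripts weighted by their estimated shares, so this column carries an estimate of the transcript mix. For Xbp1 the extremes over all 8 tables were 2221 and 2247 bases, a gap of 26. The footprint tables gave exactly 2247 in both WT libraries and KO replicate 1, all on the longer transcript, and 2245.05 in KO replicate 2, or 7.50% on the shorter, from 831 counts. In the RNA-seq tables Xbp1 stood at 2221 in 3 libraries and 2247 in KO replicate 2, from 3 to 6 counts each, too few to compare. Which transcript has which length is not given in the tables, so the share is not read as that of the mRNA cut by IRE1. For Hspa5 the extremes were 2534 and 2616 bases. The share of its longer transcript in footprints was 19% and 9% in WT and 23.7% and 12.7% in KO, higher in replicate 1 of each genotype, with the genotypes overlapping.

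The RNA-seq tables held 152195 to 219567 counts each, of which 45 to 64 fell on the 10 genes. Hsp90b1 had 26 and 17 counts in WT and 15 and 24 in KO, and Hspa5 9 and 13 in WT and 10 and 8 in KO. Calr had 34 counts over the 4 libraries, Pdia4 27, Xbp1 17, Edem1 6, Ern1 2, Herpud1 2, Sdf2l1 1 and Dnajb9 0. In a library, 3 counts correspond to 13.7 to 19.7 CPM, and only Hspa5, Hsp90b1, Calr and Pdia4 had more than 3 counts in every RNA-seq library. Of the 10, Hspa5 and Hsp90b1 alone passed the filter on low counts. Their RNA-seq log2 fold changes were 0.04 (SE 0.60, edgeR adjusted p = 0.977) and 0.15 (SE 0.47, adjusted p = 0.886), with 0 of 2 called, against 6.37% of 2087 genes. Translational efficiency, the footprint change relative to the RNA-seq change, gave 0.18 (SE 0.43, adjusted p = 0.836) for Hspa5 and 0.05 (SE 0.39, adjusted p = 0.950) for Hsp90b1. Again 0 of 2 were called, against 9.26% of 1458 genes, and for both tests 0 of 2 had an unadjusted p below 0.05 and DESeq2 called 0.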

How the data were processed

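Per the file headers, the authors deposited RSEM expected counts, TPM and FPKM for 23845 gene symbols per library. RSEM, Bowtie2 2.3.4.3 and the mm10 build are listed in the submitters' processing notes, and their settings are not stated. Expected counts were rounded for tests, CPM was computed from them unrounded, and the deposited TPM gave levels per length and 1 alternative. KO was tested against WT with edgeR 4.0.16 (TMM, filterByExpr, robust glmQLFit) over all genes of an assay, with Benjamini-Hochberg adjustment and calls below 0.05. Efficiency was the assay by genotype interaction. Standard errors came from F statistics. Intervals are 95%. The steps were tested on simulated counts. DESeq2 1.42.0 and limma 3.58.1 were alternatives. The 10 genes and all lists were chosen with earlier results of these data known. Text names follow a rule: the 10 genes, the 2 smallest p of each list and the 5 genes nearest to Hspa5. Canx, Hyou1, Eif2ak3, Atf6 and the cell type markers are named outside it, after their values were seen. The pairing behind the replicate block comes from the replicate numbers and a shared tag in the deposited names of the footprint libraries. Deviations of same-numbered libraries correlated at 0.433. Positions came from GENCODE M21 and chromosomes from RefSeq, both GRCm38. The promoter table held 80 of the 111 other ER genes. Replicate tables differed by more than sampling noise (chi-square per degree of freedom of 24.1 in WT and 21.3 in KO footprints).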

Additional observations from a re-analysis of the deposited data

How the results depend on the processing

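Footprint calls over all genes numbered 301 and moved with the processing: 172 with limma on log2(TPM + 1), 186 with a mean count of at least 50, 1110 with no filter, and 189 to 761 when 1 library was left out (761 without WT replicate 1, 505 without WT replicate 2, 209 without KO replicate 1). A common tag stands in the deposited names of WT and KO footprint libraries with equal numbers. What the tag marks is not stated, and 2 pairs cannot settle from the values whether the numbers pair the samples. A replicate block in the edgeR fit raised the calls to 2960 (24.0% of 12315, with 1566 higher in KO and 1394 lower). Of the 10 ER genes it called 1 (Xbp1, -0.42, adjusted p = 0.00279), and of the 110 other ER genes 34 (23 higher and 11 lower). For the other ER genes the count, 0 by the edgeR fit reported, was 1 with no filter (Serpinh1, adjusted p = 0.0151) and 0 to 3 when 1 library was left out (3 without WT replicate 1, 1 without WT replicate 2). In these fits the lone library of a genotype is assumed to vary like the other pair.

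Of 140 alternative values of the 10 genes, 124 kept their direction and side of the threshold, 1 newly passed and 15 changed sign, all without passing. With chromosome medians removed, Calr stood at 0.16, Pdia4 at 0.18, Edem1 at 0.32 and Dnajb9 at -0.044. Dnajb9 was at -0.0025 with DESeq2, -0.0046 with RLE factors and -0.0073 with library totals only. Over the fits that each left out 1 library, Calr ran from -0.23 to 0.13, Dnajb9 from -0.24 to 0.31, Sdf2l1 from -0.13 to 0.48, Herpud1 from -0.16 to 0.35 and Edem1 from -0.22 to 0.094. Calr also changed sign without KO replicate 1 (0.03), Dnajb9 without KO replicate 1 (-0.06) and Sdf2l1 without WT replicate 1 (-0.09). Leaving out replicate 2 of either genotype moved the median of the 10 genes to -0.15 (WT) or -0.14 (KO). For RNA-seq and efficiency, 0 of the 2 tested genes, Hspa5 and Hsp90b1, were called with the block and with DESeq2. With no filter 0 were called too, but the other 8 had only 0 (Dnajb9) to 34 (Calr) RNA-seq counts over the 4 libraries. The cause of these shifts was not tested. At the RNA-seq depth, 8 of the 10 genes were below the filter.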
